A study of Mus musculus with 32 samples.

Results

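The levels of 10 genes of lipoprotein handling were followed across the livers of 32 mice. They encode the apolipoproteins Apoa1, Apoa4, Apoa5, Apob, Apoc3 and Apoe, and 4 proteins that build, mature, empty or fill lipoprotein particles: Mttp, Lcat, Scarb1 and Abca1. The 10 genes were chosen by name out of 54532 genes in the deposited table, with earlier results of these data known. All 10 passed the filter on low counts in every comparison. Counts of members called, set beside the share of all genes, are therefore a description and no test of an excess.

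The mice were C57BL/6, 12 weeks old, and fell into 8 groups of 4 by sex, genotype and diet. Male WT chow and female WT chow were wild type mice on standard chow. Male KO chow and female KO chow were Cyp2c70-/- mice on the same chow. Male WT SC-435, female WT SC-435, male KO SC-435 and female KO SC-435 received chow with 0.006% SC-435, about 11 mg per kg per day, an inhibitor of the ileal bile acid transporter (IBAT) that blocks the return of bile acids from gut to liver. By the labels this diet began 3 weeks after weaning. The study's own text puts the switch at weaning, at 4 weeks of age, and states 8 weeks of SC-435. The labels would make the treatment shorter, so its length is uncertain here. Cyp2c70 is the mouse enzyme that makes muricholic acids, so a mouse without it has a bile acid pool closer to the human one. The KO mice lack exon 2 of Cyp2c70 and descend from 1 founder. All groups were fed and not fasted before the livers were taken.

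The liver secretes triglyceride and cholesterol in very low density lipoproteins (VLDL), each built on an apolipoprotein B that is loaded with lipid as it is made. High density lipoprotein (HDL) starts from apolipoprotein A-I, which takes up lipid from cells, matures in plasma and returns cholesterol to the liver, where part of it becomes bile acid. Apolipoproteins carried on the particles decide how fast lipase empties them and which receptor clears them. Genes of this system are read in hepatocytes under nuclear receptors and sterol sensors that also govern bile acid synthesis.

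Levels below are CPM, a gene's share of the reads of a library on a fixed scale, adjusted with edgeR's TMM factors over all 32 libraries, and values for a group are listed in the order of replicates 1 to 4, which only name the mice. Differences are log2 fold changes ± standard error (SE) from edgeR's quasi-likelihood test on the libraries of the groups compared. A gene is called when its p, adjusted by Benjamini and Hochberg over all genes tested, is under 0.05. The labels do not describe litters or batches, so p-values measure only the spread between these samples.

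Among these protein-coding genes, 4 apolipoprotein genes lie together on chromosome 9 of GRCm38 (mm10). They are Apoa1 (chr9:46228580-46230466, + strand, ENSMUSG00000032083), Apoc3 (chr9:46232933-46235636, - strand, ENSMUSG00000032081), Apoa4 (chr9:46240696-46243459, + strand, ENSMUSG00000032080) and Apoa5 (chr9:46268633-46271919, + strand, ENSMUSG00000032079). The other 6 are apart: Apob (chr12:7977648-8016835, +, ENSMUSG00000020609), Apoe (chr7:19696109-19699188, -, ENSMUSG00000002985), Mttp (chr3:138089854-138144968, -, ENSMUSG00000028158), Lcat (chr8:105939551-105943382, -, ENSMUSG00000035237), Scarb1 (chr5:125277087-125341094, -, ENSMUSG00000037936) and Abca1 (chr4:53030787-53159895, -, ENSMUSG00000015243). Their exon lengths in the table ran from 1014 bases for Apoc3 to 13934 bases for Apob.

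Sequence from before the start of transcription is shown for 3 of the members that were called lower in female KO SC-435 livers than in female WT chow livers, the comparison with the most members called. The bases are from RefSeq on GRCm38.p6, written 5′ to 3′ on the strand of the gene, in lower case with motif matches in capitals. Of the 10 members, 8 had an entry in the promoter table, and among the 6 called in that comparison 4 had one. Distances run from the most upstream RefSeq start of each gene, and only bases outside annotated exons are printed.
Apoa1, chr9:46228380-46228579, + strand, 250 to 51 bases before the start: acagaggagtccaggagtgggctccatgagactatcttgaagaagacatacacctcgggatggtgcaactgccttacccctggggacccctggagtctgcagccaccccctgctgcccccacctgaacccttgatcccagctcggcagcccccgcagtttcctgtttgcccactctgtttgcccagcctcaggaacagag
Apoa5, chr9:46268358-46268607, + strand, 250 to 1 bases before the start: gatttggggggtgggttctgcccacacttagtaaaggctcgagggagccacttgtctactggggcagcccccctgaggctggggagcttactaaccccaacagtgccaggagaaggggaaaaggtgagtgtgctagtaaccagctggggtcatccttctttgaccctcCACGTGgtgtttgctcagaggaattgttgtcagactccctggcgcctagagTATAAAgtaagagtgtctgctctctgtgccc
Lcat, chr8:105943403-105943589, - strand, 187 to 1 bases before the start: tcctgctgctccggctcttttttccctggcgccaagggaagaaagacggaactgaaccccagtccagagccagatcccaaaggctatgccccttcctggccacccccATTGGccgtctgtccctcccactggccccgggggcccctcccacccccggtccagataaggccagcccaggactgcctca

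A set of 5 motifs was searched on both strands, chosen after the values were seen: the TATA box TATAAA, the binding box CCAAT, the nuclear receptor half-site AGGTCA, the HNF1 half-site GTTAAT and the E-box CACGTG. The Apoa5 window held TATAAA 31 bases before the start, as did 12.4% of 32851 promoter entries in a window of the same place and length. It also held CACGTG 82 bases before the start, which 6.02% of entries hold. In the Lcat window the CCAAT box, read on the opposite strand and so printed as ATTGG, lay 80 bases before the start, against 28.1% of entries. The Apoa1 window held none of the 5 motifs, each held by 4.34% to 28.4% of entries in a window of that place and length. It ended 51 bases before the start, so a TATA box nearer the start could not be seen there. A match describes letters and says nothing of a factor.

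Library totals ran from 36476021 to 44771350 counts, with a median of 42232543, and the 10 members took 2.91% to 5.53% of them. Cyp2c70 itself was lower in every KO group than in the WT group of the same sex and diet, at 149 to 187 CPM in KO chow and 522 to 851 CPM in WT chow livers. Its counts cover the whole gene and not exon 2 alone. The 8 hepatocyte markers were read in every group, with none at 0. Male WT chow replicate 1 stood apart: its mean correlation with its group was 0.871, against 0.947 to 0.951 for the other 3, and its TMM factor was 0.639. In that library genes over 5000 bases lay low against genes under 1500 bases, by a median log2 contrast of -1.21, where the other 3 were at 0.03 to 0.15. Comparisons that use male WT chow are therefore given with and without it. Female WT chow replicate 1 had the same contrast at -0.30, against 0.07 to 0.11 in the other 3. Whole groups also differed, with overlap: 0.13 to 0.25 in female KO chow and 0.01 to 0.14 in female KO SC-435 livers. In males it was -0.09 to 0.19 in KO chow and -0.19 to -0.03 in KO SC-435 livers. The longest members, Apob, Abca1 and Scarb1, were lower on SC-435 in KO mice of both sexes. Apart from the fits with a length offset given below, the part of this contrast was not tested.

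Per kilobase of exon, Apoe was the most abundant member in female WT chow livers, at a mean of 9791 CPM per kb. Apoa1 followed at 5763, Apoc3 at 1710, Apoa5 at 441, Apob at 395 and Lcat at 380.3 CPM per kb. The remaining genes were read far less, with Mttp at 55.5, Apoa4 at 28.9, Scarb1 at 24.4 and Abca1 at 19.5 CPM per kb. Genes for secreted HDL and VLDL proteins thus headed the order, but Apoa4, also a secreted apolipoprotein, was read less than Mttp. The sterol exporter Abca1, which loads lipid onto apolipoprotein A-I, was last.

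Across the 8 group means, Apob varied least, 1.22-fold between its lowest group (male KO SC-435) and its highest (male WT SC-435). Abca1 varied 1.3-fold, Apoc3 1.44-fold and Apoe 1.54-fold. Apoa1 varied most, 3.24-fold between female KO chow and male WT chow, followed by Apoa5 at 2.36-fold and Scarb1 at 2.27-fold. For Apoa1, Apoa5, Apoe, Mttp and Lcat the highest group was male WT chow, whose mean contains the library that stood apart. Without that library, at unchanged scaling, Apoa4 varied most, 2.82-fold, followed by Scarb1 at 2.27-fold and Apoa1 at 2.21-fold, and Apoa5 and Lcat both varied 1.61-fold. For Scarb1 the extremes were both female KO groups, highest on chow and lowest on SC-435.

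**Figure D1:**
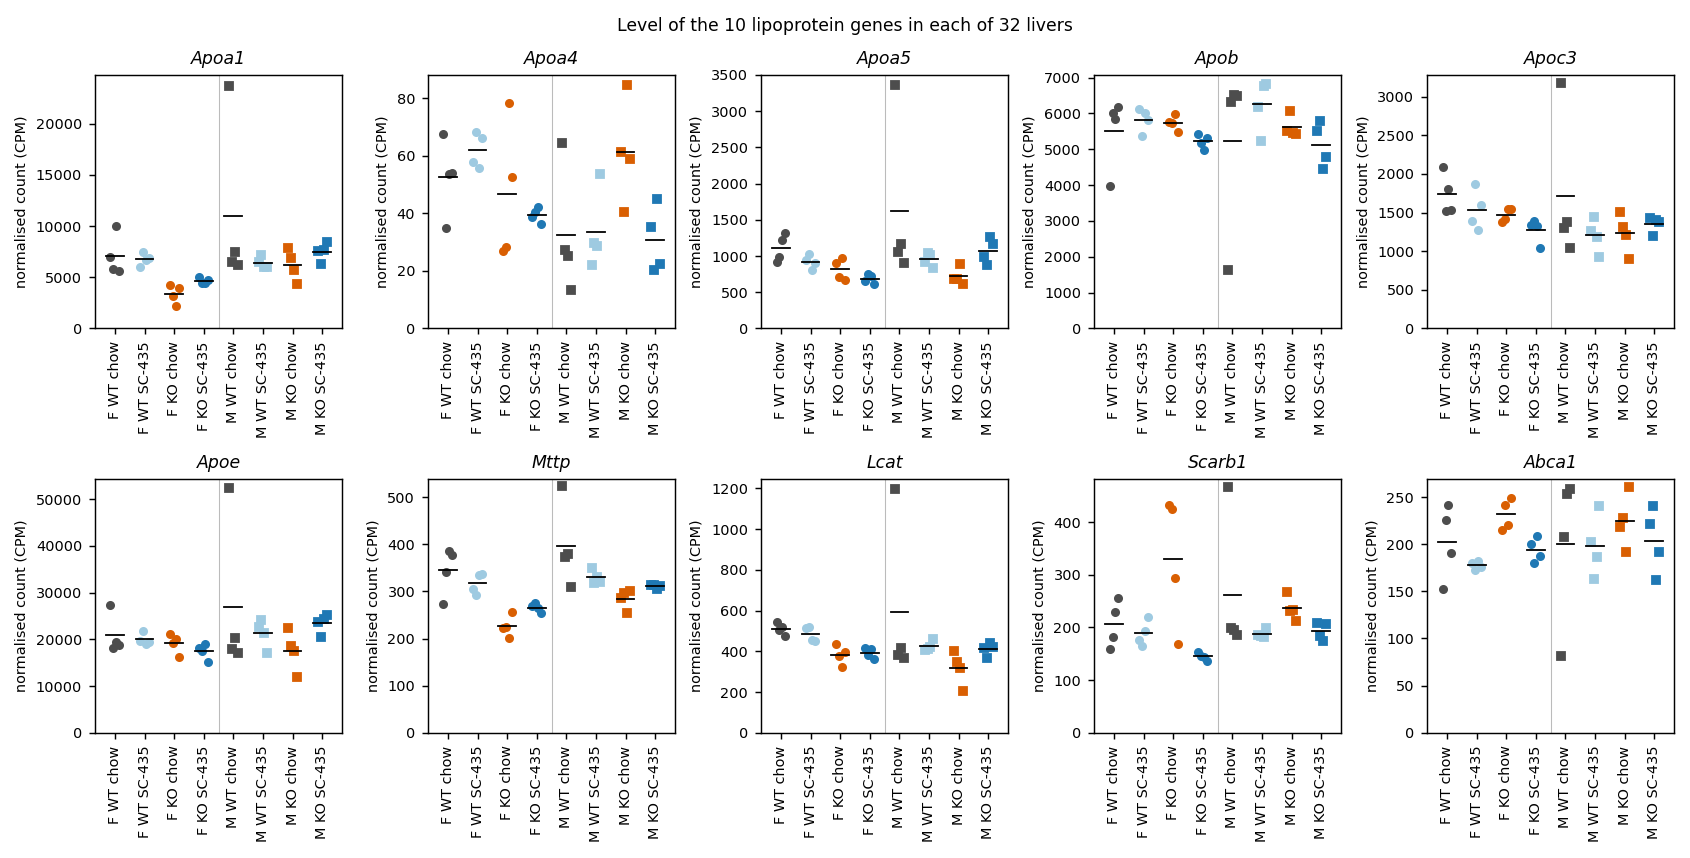
Levels of the 10 genes in CPM (linear axes), 1 panel a gene, with 1 point for each liver and a line at the mean of the 4 livers of a group. In the male WT chow group 1 liver lies far from its group for most genes, with Apoa1 at 23733 CPM against 6223 to 7437 CPM in the others.

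The comparison of female KO with female WT livers on chow asks what loss of Cyp2c70 does to these genes. Of the 10 members, 3 were called lower and 0 higher, where 5.05% of the 16205 genes tested were called lower and 9.83% higher. The 3 were Apoa1, the structural protein of HDL, Mttp, the microsomal protein that loads lipid onto apolipoprotein B, and Lcat, the plasma enzyme that esterifies cholesterol on HDL. For the 0 called higher, 1 member had an unadjusted p under 0.05, and DESeq2 called 0 higher and 3 lower. The median log2 fold change of the members was -0.18, and that of all genes tested -0.02.

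Apoa1 was at 4253, 3124, 2195 and 3998 CPM in the female KO chow livers. In the female WT chow livers it was at 6999, 5826, 10039 and 5628 CPM. Every KO liver was below every WT liver, with means of 3392 ± 933 and 7123 ± 2036 CPM (SD, n = 4) and a log2 fold change of -1.05 ± 0.24 (adjusted p = 0.0179). It was the 1 member whose change passed 1 on the log2 scale.

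Mttp read 222, 225, 201 and 256 CPM in KO chow and 273, 342, 386 and 377 CPM in WT chow females. The groups did not overlap, and the log2 fold change was -0.59 ± 0.13 (adjusted p = 0.0142). Apob, whose product Mttp loads, was at 5745, 5724, 5972 and 5478 CPM in KO and 3985, 6011, 5852 and 6191 CPM in WT livers. The low value is WT replicate 1, the groups overlapped, and the log2 fold change was 0.08 ± 0.15 (adjusted p = 0.758).

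Lcat was at 437, 378, 323 and 395 CPM in KO chow and 542, 504, 521 and 475 CPM in WT chow females. Again every KO liver lay below every WT liver, with a log2 fold change of -0.39 ± 0.11 (adjusted p = 0.0419). Of the 8 fits that leave out a library, Lcat was called only in the fit without female KO chow replicate 1, with adjusted p of 0.0563 to 0.129 in the others. Without female KO chow replicate 2 none of the 3 was called, with adjusted p of 0.0618 for Apoa1, 0.0517 for Mttp and 0.129 for Lcat, while Apoa1 and Mttp were called in the other 7 fits. Of 7 other settings Lcat was called in 3, and lost its call with library totals alone (0.265), no filter on low counts (0.0612), the replicate block (0.0699) and the gene length offset (0.0563). Apoa1 lost its call with the replicate block (0.0586) and Mttp with library totals alone (0.0577), each called in the other 6.

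Scarb1, the receptor that takes cholesteryl ester from HDL into hepatocytes, split the female KO chow livers. Replicates 1 to 4 were at 432, 426, 293 and 168 CPM, and the WT livers at 160.0, 182, 230.2 and 256 CPM. The first 3 KO livers lay above every WT liver and replicate 4 near the lowest of them, and the log2 fold change of 0.70 ± 0.28 was not called (adjusted p = 0.116). Without female KO chow replicate 4 it was 0.94 with an adjusted p of 0.00687. This was the only 1 of 8 fits leaving out a library that called it, with adjusted p up to 0.270 in the others. That liver was not among those flagged as apart for Scarb1.

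The other members overlapped between female KO and WT chow livers. The lipase inhibitor gene Apoc3 ranged over 1372 to 1552 CPM in KO and 1515 to 2086 CPM in WT livers. Apoa5, which promotes lipolysis of triglyceride by lipoprotein lipase, ranged over 672 to 978 and 918 to 1319.5 CPM and had a log2 fold change of -0.42 ± 0.17 (adjusted p = 0.114). Apoe, the ligand for receptors that clear remnants, gave -0.11, Apoa4, carried on HDL and chylomicrons, -0.15, and Abca1 0.22, with adjusted p between 0.331 and 0.799 for these 3.

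Markers of other cell types moved with this comparison. Of 14 macrophage markers, 12 were called higher in female KO chow livers, and their summed level was 861 to 1269 CPM against 520 to 643 CPM in WT chow livers, with no marker at 0. Of 6 cholangiocyte markers tested, 4 were called higher, with sums over all 7 of 133 to 287 CPM against 37.2 to 71.1 CPM. Of 6 stellate cell markers, 2 were called higher (sums of 175 to 339 against 118 to 194 CPM), and both of the neutrophil markers tested were (sums of 1.39 to 3.61 against 0.491 to 1.13 CPM). The 8 hepatocyte markers had 1 higher and 2 lower, and summed to 61530 to 84050 CPM against 95310 to 123800 CPM. A sum weighs the most abundant markers most, and the median log2 fold change of the 8 was -0.035, from -0.82 to 0.53. Of the other lists, 1 of 2 enterocyte markers tested was lower (sums over 8 of 24.0 to 33.7 against 41.3 to 57.3 CPM, with 1 at 0 in every KO chow liver), and the 3 adipocyte and 3 erythroid markers tested had adjusted p of at least 0.522. In bulk liver fewer hepatocytes and less RNA of a gene per hepatocyte cannot be told apart, and the part of cell makeup in the member values was not tested. The scaling between libraries also bears on them: with library totals alone the median of all genes moved by 0.19, the share of calls that were higher went from 66.1% to 90.8%, and Apoa1 alone of the 3 was still called.

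Adding SC-435 to the diet of female KO mice asks which of these levels respond when bile acid return is blocked. Of the 10 members 2 were called lower and 0 higher, where 9.23% of 16332 genes were called lower and 8.56% higher. Scarb1 was lower by more than 1 on the log2 scale, and the exporter Abca1 by less. For the 0 higher, 2 members had an unadjusted p under 0.05, and DESeq2 called 0 higher and 2 lower. The KO chow livers are the same as in the comparison above, so both comparisons share them.

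Scarb1 was at 154, 147, 144 and 137 CPM in female KO SC-435 livers, against the KO chow values given above. Every SC-435 liver was below every KO chow liver, including replicate 4, and the 4 SC-435 values lay within 137 to 154 CPM while the chow values spread from 168 to 432 CPM. The log2 fold change was -1.20 ± 0.25 (adjusted p = 0.0116), and it was called in all 8 fits that leave out a library and in 7 of 7 other settings.

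Abca1 was at 201, 179.7, 209 and 187 CPM on SC-435 and 215, 242, 221 and 249 CPM on chow. The groups did not overlap, and the log2 fold change was -0.27 ± 0.08 (adjusted p = 0.0493). Leaving out any 1 of the 8 libraries lifted its adjusted p above the threshold, to between 0.0533 and 0.152. Of 7 other settings Abca1 was called in 2, and the gene length offset was not among them.

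Apoa1, lower in female KO chow than in WT chow livers, was at 5073, 4422, 4401 and 4713 CPM in KO SC-435 livers. Each was above all 4 KO chow livers and below all 4 WT chow livers. The difference from KO chow of 0.44 ± 0.19 was not called (adjusted p = 0.132). Mttp was at 269, 275, 264 and 255 CPM, with 0.22 ± 0.09 over KO chow (adjusted p = 0.107). Its SC-435 range of 255 to 275 CPM met the KO chow range only at 256 CPM. Without female KO chow replicate 4 the difference was 0.28 and was called, the only 1 of 8 such fits that called Mttp. Lcat overlapped between diets, at 415, 380.2, 410.2 and 364 CPM on SC-435, with a log2 fold change of 0.02 ± 0.10 (adjusted p = 0.934), and its sign turned when library totals alone were used.

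Apob was lower in every SC-435 liver, at 4981 to 5417 CPM against 5478 to 5972 CPM, with a log2 fold change of -0.15 ± 0.10 that was not called (adjusted p = 0.312). With library totals alone, which moved the median of all genes by -0.16 and the share of calls that were higher from 48.1% to 20.5%, Apob and Apoc3 were called lower as well. Apoa4, Apoa5, Apoc3 and Apoe had log2 fold changes between -0.26 and -0.15 and adjusted p of at least 0.194. Of the macrophage markers 13 of 14 were called lower in the SC-435 livers, whose sums were 443 to 675 CPM, and 2 of 6 cholangiocyte markers were, with sums of 98.3 to 143 CPM. Both neutrophil markers tested, 1 of 6 stellate, 1 of 2 enterocyte and 1 of 8 hepatocyte markers were also lower. The hepatocyte sums did not overlap, at 86620 to 101500 CPM on SC-435 and 61530 to 84050 CPM on chow. The median log2 fold change of the 8 hepatocyte markers was nonetheless -0.0039, from -0.44 to 0.55. The part of all these markers in the member values was not tested.

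In female WT mice the same diet moved no member past the threshold. Of 10 members 0 were called, 0 had an unadjusted p under 0.05 and DESeq2 called 0, where 2.4% of 15739 genes were called higher and 1.88% lower. Log2 fold changes ran from -0.26 for Apoa5 to 0.25 for Apoa4, and the groups overlapped for every member. Abca1, for example, was at 180.0, 173, 183 and 176 CPM on SC-435 and 152, 226, 241 and 191 CPM on chow. The SC-435 values lay close together inside the wider chow range, with a difference of -0.18 ± 0.13 (adjusted p = 0.479).

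The comparison of female KO SC-435 with female WT chow livers sets the treated KO mice against untreated WT mice. It held the most calls, with 6 of 10 members lower and 0 higher, where 7.3% of 15881 genes were called lower and 8.73% higher. The 6 were Apoa1, Apoa5, Apoc3, Mttp, Lcat and Scarb1. For the 0 higher, 0 members had an unadjusted p under 0.05, and DESeq2 called 0 higher and 6 lower. The members' median was -0.39 on the log2 scale, and that of all genes tested was close to 0. This comparison shares its WT chow libraries with the genotype comparison and its KO SC-435 libraries with the diet comparison.

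Apoa5 was at 659, 754, 729 and 614 CPM in KO SC-435 livers and 918, 990.0, 1218 and 1319.5 CPM in WT chow livers. All KO SC-435 livers were lower, with a log2 fold change of -0.68 ± 0.13 (adjusted p = 0.00502). Lcat gave -0.37 ± 0.08 (adjusted p = 0.0129) from the values listed above, again with no overlap. Apoa5 and Lcat were the 2 members called in all 8 fits that leave out a library.

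Apoc3 was at 1345, 1397, 1326 and 1042 CPM against 2086, 1515, 1809 and 1527 CPM in WT chow livers. Its groups did not overlap, and the difference was -0.43 ± 0.13 (adjusted p = 0.0444). Apoa1 gave -0.60 ± 0.17 (adjusted p = 0.0311) and Scarb1 -0.50 ± 0.13 (adjusted p = 0.0280), both without overlap. Mttp overlapped WT chow replicate 1 and gave -0.36 ± 0.11 (adjusted p = 0.0413). With any 1 KO SC-435 library left out 2 members were called, and without female WT chow replicate 3, 3 were. Apoc3 was also lost without female WT chow replicate 1, Mttp without replicate 2 or 4 of that group and Scarb1 without replicate 4. Apob, Apoe and Abca1, at -0.07, -0.25 and -0.05, and Apoa4, at -0.40, were not called, but Apoa4 was called without female WT chow replicate 2 (-0.56, adjusted p = 0.00984).

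In this comparison the 13 macrophage markers tested had adjusted p of at least 0.133 and sums of 443 to 675 CPM against 520 to 643 CPM. Of 6 cholangiocyte markers 3 were called higher, with sums of 98.3 to 143 against 37.2 to 71.1 CPM. Of 6 stellate markers 2 were called higher, and of 2 enterocyte markers 1 was higher and 1 lower, with sums over 8 of 20.3 to 23.1 against 41.3 to 57.3 CPM. Hepatocyte markers had 1 higher and 1 lower and sums of 86620 to 101500 against 95310 to 123800 CPM. Their part in the 6 member calls was not tested.

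**Figure D2:**
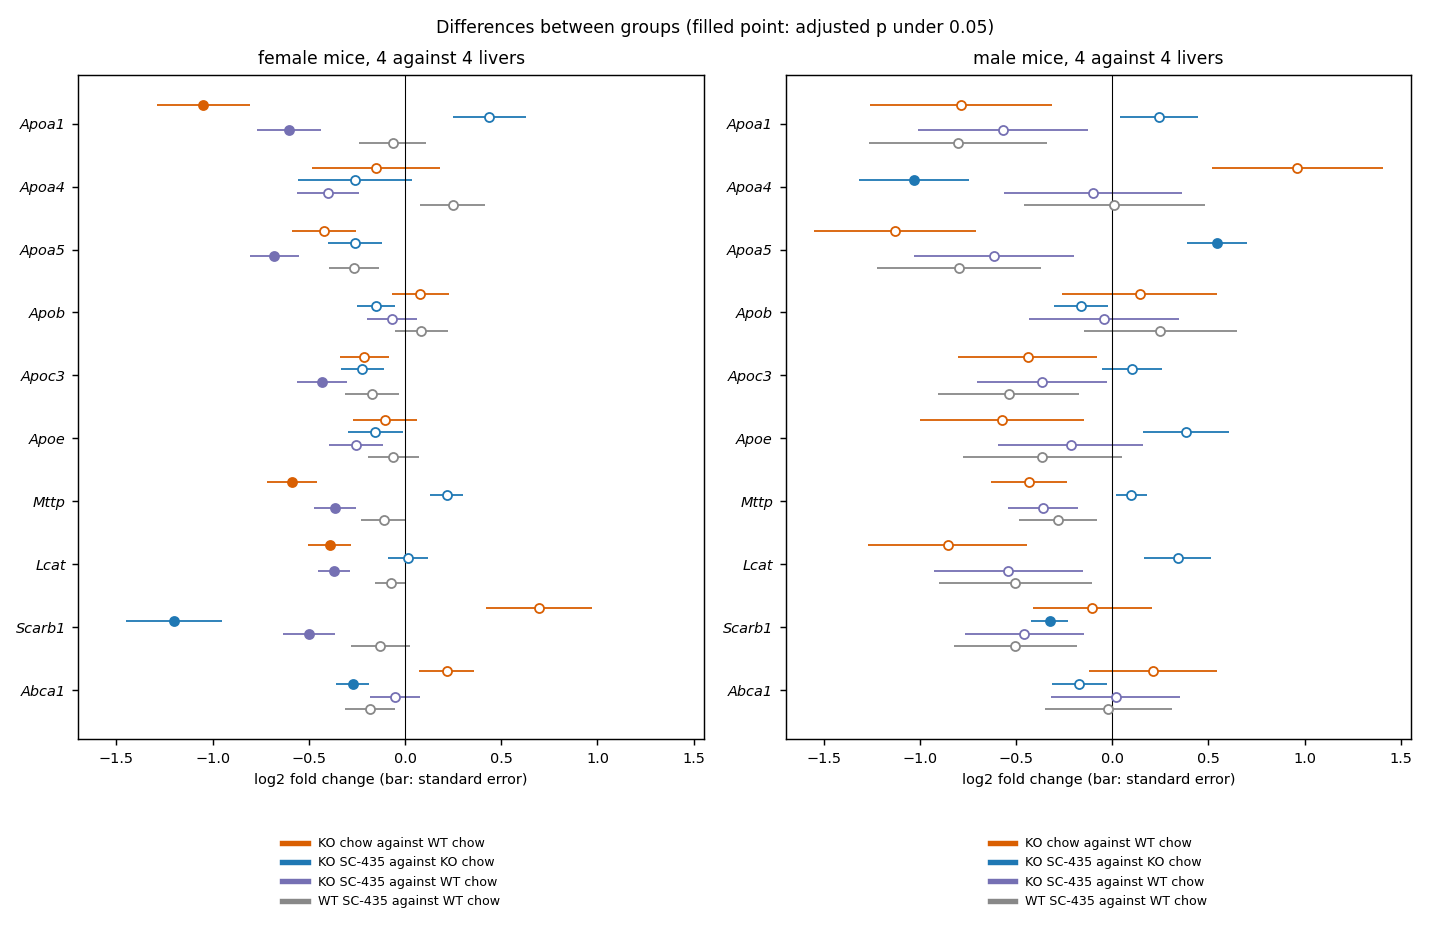
Log2 fold change of each gene (x axis, bars are SE) in 4 comparisons for females and 4 for males, with filled points for an adjusted p under 0.05 (edgeR). Scarb1 at -1.20 in the female KO SC-435 comparison with KO chow and Apoa1 at -1.05 in female KO against WT on chow are the largest called female values, and the male comparisons with WT chow have long bars and no filled point.

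In males the KO and WT livers on chow were compared in the same way. Of 10 members 0 were called, where 0.933% of 15862 genes were called higher and 0.151% lower by edgeR. Of the members 1, Apoa5, had an unadjusted p under 0.05, and DESeq2 called 0. Without male WT chow replicate 1 the background rose to 4.38% of 16390 genes higher and 2.92% lower, and 1 member, Apoa4, was called higher.

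Apoa4 was at 61.3, 40.3, 84.7 and 58.8 CPM in male KO chow livers and at 64.4, 27.2, 25.2 and 13.5 CPM in male WT chow livers. The high WT value is replicate 1, and the other 3 WT livers lie below every KO liver. The log2 fold change was 0.96 ± 0.44 with all libraries (adjusted p = 0.342) and 1.52 ± 0.30 without that library (adjusted p = 0.0279).

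Apoa5 was lower in every male KO chow liver, at 687, 683, 895 and 618 CPM against 3368, 1061, 1167 and 903 CPM in WT chow. The difference was -1.13 ± 0.42 with all libraries (adjusted p = 0.244). Without replicate 1, which is the highest value, it was -0.49 ± 0.16 (adjusted p = 0.0906). Mttp was also lower in every KO liver, at 285, 297, 255 and 301 CPM in KO and 523, 373, 379 and 309 CPM in WT livers, with -0.43 ± 0.20 and, without replicate 1, -0.28 ± 0.11 (adjusted p = 0.340 and 0.142).

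Scarb1 took opposite signs with and without that library. Male KO chow livers were at 267, 231, 234 and 213 CPM and WT chow livers at 466, 199, 195 and 186 CPM. The 3 other WT livers are all below the KO livers, and the difference was -0.10 ± 0.31 with all libraries and 0.33 ± 0.09 without it (adjusted p = 0.0716). Apoa1, at 4299 to 7863 CPM in KO livers, went from -0.79 ± 0.47 to -0.08 ± 0.22, and Lcat from -0.86 ± 0.41 to -0.25 ± 0.19, both with adjusted p above 0.35. Apob, Apoc3, Apoe and Abca1 lay between -0.16 and 0.03 without it.

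Male WT chow replicate 1 held 3.53 times the mean of the other 3 livers for Apoa1, 3.23 for Apoa5, 3.08 for Lcat, 2.93 for Apoa4, 2.85 for Apoe, 2.57 for Apoc3, 2.41 for Scarb1 and 1.48 for Mttp. The longest members went the other way, with Abca1 at 0.338 and Apob at 0.252 times that mean. Scarb1, at 8500 bases, was high in this library although it is the third longest member. The part of gene length in these ratios was not tested.

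**Figure D3:**
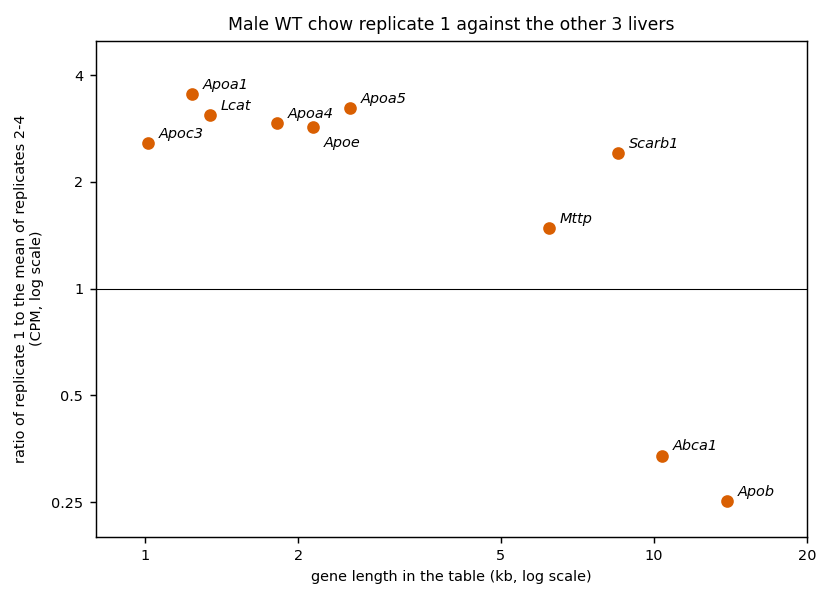
Ratio of the CPM in male WT chow replicate 1 to the mean of the other 3 male WT chow livers (y axis, log scale) against exon length in kb (x axis, log scale) for the 10 genes. Apoa1 is highest at 3.53 and Apob, the longest gene with 13934 bases, lowest at 0.252.

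Of the cell markers in this comparison, 3 of 6 cholangiocyte and 2 of 14 macrophage markers were called higher. The cholangiocyte sums did not overlap, at 144 to 1154 CPM in KO and 24.5 to 35.3 CPM in WT livers, while the macrophage sums of 500 to 1785 and 399 to 756 CPM did. The 8 hepatocyte markers had adjusted p of at least 0.408. They summed to 55980 to 84510 CPM in KO livers, to 77250 to 85410 CPM in 3 WT livers and to 179300 CPM in male WT chow replicate 1. Their part in the member values was not tested.

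SC-435 in male KO mice moved 3 members, 1 higher and 2 lower, where 8.8% of 15984 genes were called higher and 8.36% lower. Apoa5 was higher, and Apoa4 and Scarb1 were lower. Leaving out 1 library gave 0 to 2 members called, with 0 without male KO chow replicate 1, KO SC-435 replicate 1 or KO SC-435 replicate 4, and the fit of all 4 male groups together gave 0.

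Apoa4 was at 35.4, 20.4, 44.99 and 22.4 CPM in male KO SC-435 livers, against the KO chow values above. The 2 ranges overlapped at their ends, and the difference was -1.03 ± 0.29 (adjusted p = 0.0382). In fits that leave out a library it was called only without male KO chow replicate 2 or 4 or KO SC-435 replicate 3. Apoa5 was at 985, 879.5, 1266 and 1167 CPM, with 1 liver, replicate 2, inside the KO chow range. Its difference was 0.54 ± 0.16 (adjusted p = 0.0420), called in such fits only without male KO chow replicate 3 or KO SC-435 replicate 2.

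Scarb1 was at 208, 183, 174 and 206 CPM on SC-435, below all 4 male KO chow livers. The difference was -0.33 ± 0.10 (adjusted p = 0.0491), called in such fits only without male KO chow replicate 4. Of 7 other settings Scarb1 was called in 2, Apoa5 in 4 and Apoa4 in 6, with adjusted p up to 0.4915, 0.3775 and 0.1519. Mttp was higher in each SC-435 liver, at 314, 314, 306 and 312 CPM, but by only 0.10 ± 0.08 (adjusted p = 0.417), and its sign turned with library totals alone. Those totals moved the median of all genes by -0.20 and the share of calls that were higher from 51.3% to 24.6%. Apoa1, Apob, Apoc3, Apoe, Lcat and Abca1 had log2 fold changes between -0.17 and 0.38 and adjusted p of at least 0.194. Among cholangiocyte markers 5 of 6 were called lower on SC-435, with sums of 49.8 to 60.8 CPM, and 4 of 14 macrophage markers were, with sums of 404 to 613 CPM. Of the other lists, 3 of 6 stellate, 2 of 2 neutrophil, 1 of 2 enterocyte and 1 of 8 hepatocyte markers were lower and 2 of 3 erythroid markers higher, and the part of all these in the member values was not tested.

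Male WT livers on SC-435 and on chow gave 0 of 10 members called, 0 with an unadjusted p under 0.05 and 0 by DESeq2, where 0.0131% of 15211 genes were called higher and 0.0263% lower by edgeR. Without male WT chow replicate 1 it was again 0 of 10 by either measure of p, where 1.41% of 15577 genes were called higher and 1.12% lower, and the differences ran from -0.28 for Abca1 to 0.60 for Apoa4. Male KO SC-435 against male WT chow livers also gave 0 of 10, with 0 under an unadjusted p of 0.05 and 0 by DESeq2, where 0.169% of 15395 genes were called higher and 0.039% lower. Without that library 6.47% of 15797 genes were called higher and 5.7% lower, no member was, and 3 members had an unadjusted p under 0.05. Apoe, at 23663, 20464, 24271 and 25203 CPM in male KO SC-435 livers and 52331, 17870, 20278 and 17032 CPM in male WT chow livers, then had the smallest adjusted p of the members (0.34 ± 0.10, adjusted p = 0.0577). All 4 KO SC-435 livers lay above the 3 remaining WT livers. Apob differed by -0.34 ± 0.10 (adjusted p = 0.0650), with 4453 to 5777 CPM in KO SC-435 livers below the 6326 to 6511 CPM of those 3.

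Female and male WT livers on chow were compared for the baseline difference between the sexes. Of 10 members 0 were called and 0 had an unadjusted p under 0.05 by edgeR, where 0.747% of 15525 genes were called higher in females and 0.747% lower. Without male WT chow replicate 1, 4.78% of 15895 genes were called higher and 4.75% lower, and 2 members were called higher in females. Apoa4 was at 67.5, 34.8, 53.8 and 53.9 CPM in females, above the 3 remaining males at 13.5 to 27.2 CPM, a difference of 1.24 ± 0.26 (adjusted p = 0.0184). Lcat, at 475 to 542 CPM in females and 366 to 418 CPM in those males, differed by 0.38 ± 0.09 (adjusted p = 0.0280). Apoc3 was next at 0.47 ± 0.14 (adjusted p = 0.0653), not called.

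**Figure D4:**
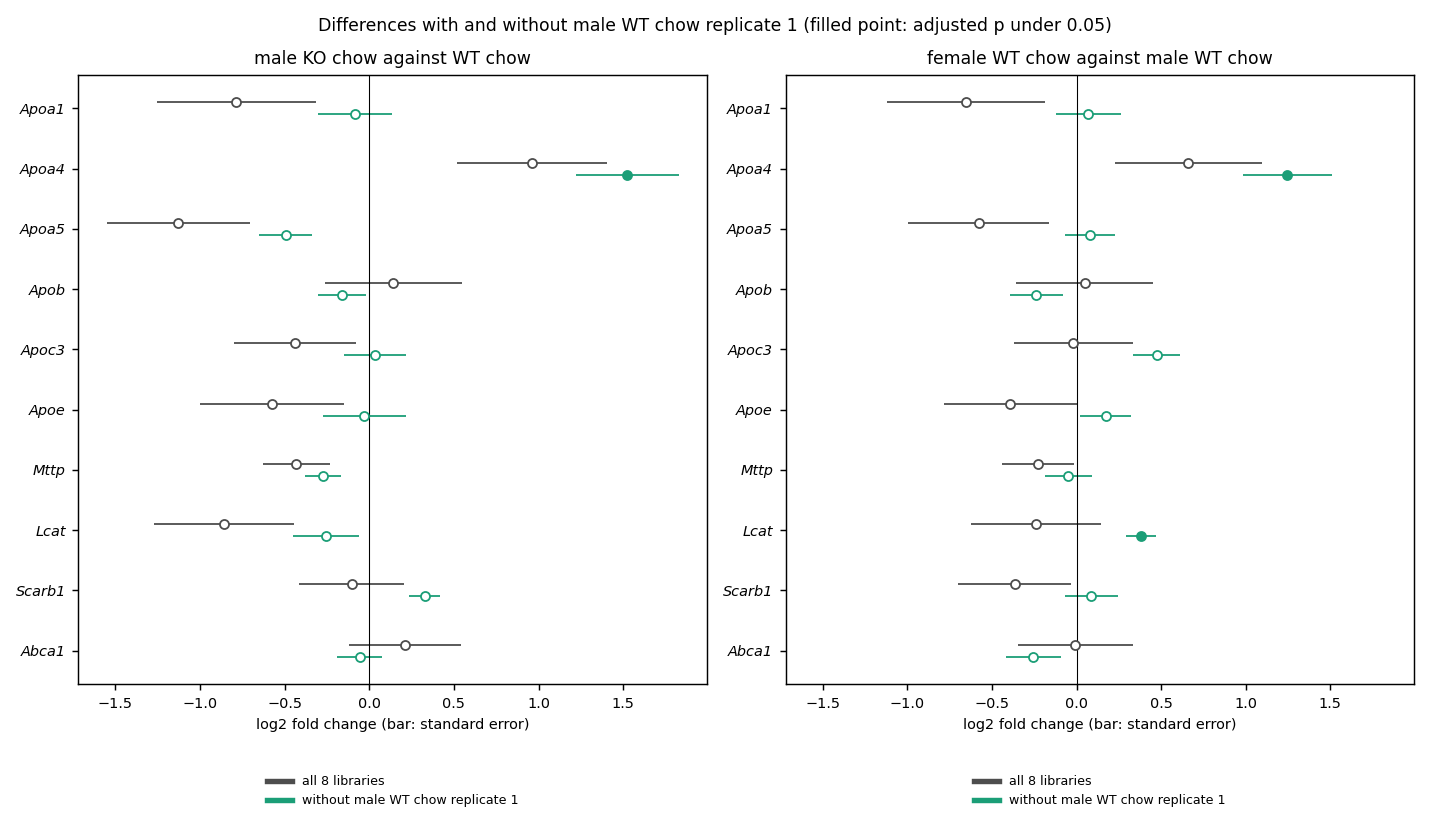
Log2 fold changes (x axis, bars are SE) of the 10 genes for male KO against WT on chow and for female against male WT on chow, each with all 8 libraries and without male WT chow replicate 1. With all libraries no gene is called, and without that library Apoa4 is called in both (1.52 and 1.24) and Lcat in the comparison of the sexes (0.38).

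Whether the effects themselves differed between genotypes or sexes was tested with interaction terms on 16 libraries, which reuse the same livers as the comparisons above. For the SC-435 effect in KO against WT females 0 members were called, where 0.859% of 16882 genes were called higher and 1.78% lower by edgeR, and 2 members had an unadjusted p under 0.05. Scarb1 came nearest, at -1.08 ± 0.32 (adjusted p = 0.0766). Without female KO chow replicate 4 it was -1.30 ± 0.21 (adjusted p = 0.00144). This was the only 1 of 16 fits leaving out a library that called a member. For the same term in males 0 were called, 1 had an unadjusted p under 0.05, and 0.0121% of 16555 genes were called higher and 0.0785% lower. Without male WT chow replicate 1 these shares were 0.301% and 0.396%, with 0 members called and 3 under an unadjusted p of 0.05.

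The KO effect on chow was not shown to differ between the sexes for any member. Of 17026 genes 0.0117% were called higher and 0.0117% lower, and 0 members had an unadjusted p under 0.05. Without male WT chow replicate 1 the shares were 0.19% and 0.241%, with 0 members called, and Apoa4 at -1.64 ± 0.50 (adjusted p = 0.168) and Apoa1 at -0.94 ± 0.36 (adjusted p = 0.261) had the largest differences. The SC-435 effect in KO mice, of 17069 genes tested with 0.0996% higher and 0.111% lower in females, also gave 0 members, 3 of them with an unadjusted p under 0.05. Apoa5, which was called higher on SC-435 in males, differed between the sexes by -0.83 ± 0.22 (adjusted p = 0.133). Scarb1 differed by -0.90 ± 0.29 (adjusted p = 0.211), and without female KO chow replicate 4 by -1.10 ± 0.17 (adjusted p = 0.00621). This too was the only 1 of 16 fits leaving out a library that called a member. DESeq2 was not run for these terms or for the baseline comparison of the sexes.

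Around the 10 members stand 72 other genes of lipoprotein metabolism in 6 lists: other apolipoproteins and HDL proteins (14), assembly of apolipoprotein B particles (12), lipases and lipid transfer (10), receptors and their control (12), sterol export and storage (9), and transcription factors and coactivators (15). In female KO against WT livers on chow 7 of the 70 tested were called higher and 14 lower, where 9.83% and 5.05% of all genes were, with a median log2 fold change of -0.18 beside -0.02 for all genes. The number depended on female KO chow replicate 2, without which 8 were called in all. Between 11 and 13 were called when replicate 1 or 3 of that group, or replicate 3 or 4 of the WT livers, was set aside. Here and below, such counts stand without the share of all genes called in the same fit, unless it is given. Of the 13 other apolipoproteins and HDL proteins tested, 3 were called higher, 5 lower and 5 not. Among those called, named here after their values were seen except Saa1 and Saa2, Pon1 was at -0.60, Apom at -0.63, Apoa2 at -0.59, Apoh at -0.43, Apoc4 at -0.40 and Clu at 0.57. The acute phase HDL proteins Saa2 (2.48 ± 0.39, adjusted p = 0.00384) and Saa1 (1.94 ± 0.37, adjusted p = 0.00870) were higher, and since their sequences are close, the split of reads between them is uncertain.

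Lpl, the lipase that empties triglyceride-rich particles, was higher by 2.04 ± 0.33 (adjusted p = 0.00409). Its inhibitor Angptl4 was lower at -1.56 ± 0.27 (adjusted p = 0.00592), and the endothelial lipase Lipg at -1.43 ± 0.36 (adjusted p = 0.0263). Of the 15 transcription factors 4 were called, all lower. They were the bile acid receptor Nr1h4 (-0.48), its target Nr0b2 (-0.82), the hepatocyte factor Hnf4a (-0.42) and Creb3l3 (-0.40), a factor that activates apolipoprotein genes. Pdzk1, the adaptor that holds the Scarb1 protein in the hepatocyte membrane, was lower at -0.77 ± 0.16 (adjusted p = 0.0103), and the sterol exporter Abcg1 and the cholesterol-esterifying Soat1 were higher by 1.19 and 0.96. Except for Nr0b2, Angptl4, Lipg, Lpl, Saa1 and Saa2, these genes were named after their values were seen. Macrophage markers were higher in the same livers, as given above, and their part was not tested.

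SC-435 in female KO mice gave 12 of 69 called higher and 8 lower, where 8.56% and 9.23% of all genes were, with a median of 0.06 beside -0.02 for all genes. The same KO chow livers serve in both comparisons. Saa2, Lpl and Saa1 were lower, with log2 fold changes of -1.99, -1.97 and -1.83. Without female KO chow replicate 4 a total of 32 genes of these lists were called, against 20 with it. The share of all genes called in that fit is not given, so a rise particular to these lists was not shown. The phospholipid transfer protein gene Pltp rose by 1.25 ± 0.14 (adjusted p = 0.00127) and Lipg rose by 1.19 ± 0.28 (adjusted p = 0.0192). Srebf2, the sterol-regulated factor that drives cholesterol synthesis, rose by 1.12 and Pdzk1 by 0.64, while Abcg1 changed by -1.04, 3 genes named after their values were seen.

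In female WT mice SC-435 gave 2 of 69 higher and 3 lower, where 2.4% and 1.88% of all genes were called, with a median of 0.02. Srebf2 was higher by 0.54, and Nr0b2, Srebf1 and Surf4, a cargo receptor for lipoprotein export, lower at -1.36, -0.63 and -0.35. In fits that leave out 1 library 0 to 5 genes of these lists were called, with 0 without female WT chow replicate 2 or any 1 of WT SC-435 replicates 2 to 4. Female KO SC-435 against WT chow gave 7 higher and 8 lower of 69, where 8.73% and 7.3% of all genes were called, with Pltp (1.05) and the fatty acid translocase Cd36 (0.92) among the higher and Nr0b2 (-1.60), Angptl4 (-1.21) and Creb3l3 (-0.64) among the lower. Without female WT chow replicate 1 the count was 23, and without KO SC-435 replicate 2 it was 9.

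Male KO against WT livers on chow had 2 of 69 higher, Saa2 (3.14) and Saa1 (2.26), and 0 lower, beside 0.933% and 0.151% of all genes. In the lower direction 9 had an unadjusted p under 0.05 and DESeq2 called 6. With male WT chow replicate 1 set aside the lists held 4 higher and 7 lower among 70 tested, beside 4.38% and 2.92% of all genes. SC-435 in male KO mice gave 17 higher and 4 lower of 69, where 8.8% and 8.36% of all genes were called, led by Pltp (2.08 ± 0.28, adjusted p = 0.00263), the VLDL receptor Vldlr (2.06 ± 0.20, adjusted p = 0.000561) and Lipg (1.74 ± 0.42, adjusted p = 0.0257). Saa2, Saa1 and Nr0b2 were lower at -2.09, -1.98 and -1.96. The count of 21 became 11 to 13 without male KO chow replicate 3 or KO SC-435 replicate 1, 3 or 4. In male WT mice on SC-435 0 of 69 were called by edgeR, beside 0.0131% of all genes higher and 0.0263% lower. Of the 69, 9 had an unadjusted p under 0.05 and DESeq2 called 1. Without male WT chow replicate 1, 3 were higher and 1 lower, beside 1.41% and 1.12% of all genes. Saa2 and Saa1, named here after their values were seen, were then at 8.17 ± 2.89 and 6.35 ± 2.33. Neither was called (adjusted p = 0.177 and 0.190 by edgeR). Male KO SC-435 against WT chow gave 1 higher, Cd36 at 2.13 ± 0.27 (adjusted p = 0.0299), beside 0.169% of all genes. Without that library it gave 16 higher and 4 lower of 69, beside 6.47% and 5.7% of all genes. Between the sexes on chow Vldlr (2.69) and Cd36 (1.65) were higher in females, beside 0.747% of all genes. Without that library 11 of 69 were higher and 2 lower, beside 4.78% and 4.75% of all genes.

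**Figure D5:**
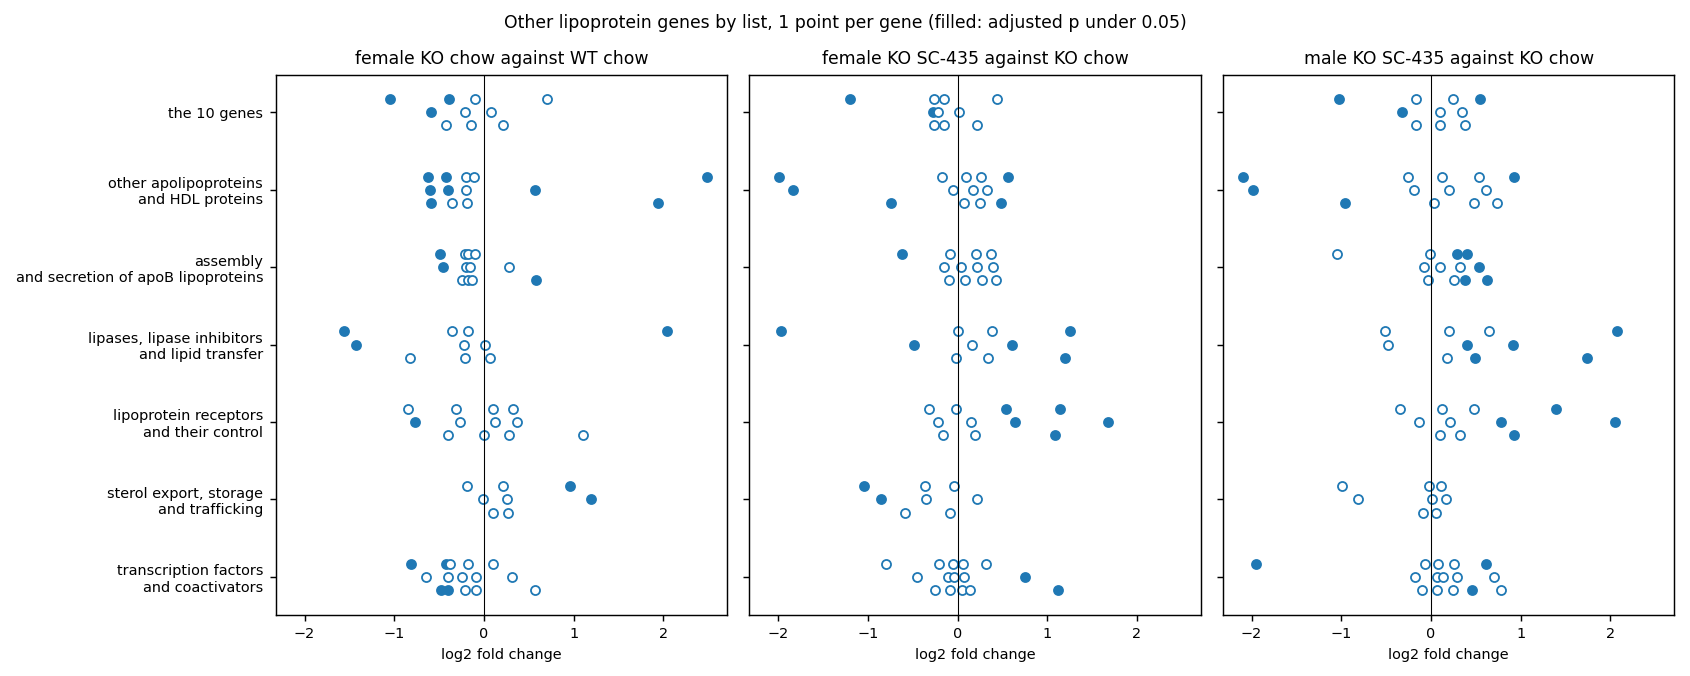
Log2 fold changes (x axis) of the 10 members and of the 72 other lipoprotein genes by list (y axis), 1 panel a comparison, with filled points for an adjusted p under 0.05 (edgeR). In female KO against WT on chow Saa2 is farthest to the right at 2.48 and Angptl4 farthest to the left at -1.56.

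Within groups some members varied together from liver to liver. After each group's mean was taken off the log2 CPM of the 32 libraries, Pearson's r was 0.92 for Apoc3 with Apoe, 0.91 for Apob with Abca1 and 0.89 for Apoa1 with Lcat. It was -0.85 for Apob with Apoe and -0.86 for Abca1 with Apoe. With male WT chow replicate 1 left out the same 5 values were 0.82, 0.68, 0.70, -0.50 and -0.61 over 31 libraries. The points share library depth, scaling and the length contrast described above, and no test was run on them.

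Over all 32 libraries and 11901 genes with a mean of at least 1 CPM, the pattern of Apoa1 was most like those of Ppcs and Adrm1 (Pearson's r of 0.9 each), Serpina1a (0.896), Wsb2 (0.893) and Syf2 (0.887). Apoa5 was most like Agpat3 (0.908), Iba57 (0.903), Cstf1 (0.901), Acadvl (0.888) and Mon1a (0.887). Over 31 libraries, with male WT chow replicate 1 left out, the values for these genes were 0.805 to 0.83 for Apoa1 and 0.727 to 0.786 for Apoa5, and they are a description of the libraries. Both members and their nearest genes were picked with that library included. Which genes would be most alike without it was not examined.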

How the data were processed

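RNA from 32 mouse livers, 4 in each of 8 groups, had been sequenced as poly-T selected mRNA. Per the submitters' processing notes, reads were aligned to mm10 with HISAT2 (2.0.5) and counted with featureCounts (1.5.0-p3). Whether the counting used strand was not given in the sources used here. The authors deposited 1 table of whole-number counts per gene, not normalized, which was the only unit used. Its FPKM columns, and columns with the fold changes and p-values of the authors' own comparisons, were not used.

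Groups came from the labels. Genes were filtered with edgeR's filterByExpr, scaled with TMM, and tested with the quasi-likelihood test in edgeR (4.0.16, R 4.3.3) on the 8 libraries compared, or 16 for interactions, with Benjamini-Hochberg adjustment over all genes and a threshold of 0.05. SE was the log2 fold change divided by the root of F. Alternatives were DESeq2 (1.42.0), other scaling factors, no filter, a replicate block, 4 groups in 1 fit, leaving out each library and, added after the data were seen, an offset for gene length. The code was tested on simulated data. Libraries of 36476021 to 44771350 counts put the floor of 3 counts at or below 0.0823 CPM. No pair of libraries of a group agreed within sampling noise.

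The members and lists were chosen with earlier results of these data known. Of the other lipoprotein genes, up to 3 with the highest and 3 with the lowest called log2 fold change per comparison were named, and any others are said to be chosen after their values were seen. Some genes that this rule would name are not reported here, though the counts over the lists include them. Group mean ranges, correlations and marker sums without male WT chow replicate 1 were added after the data were seen.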

Additional observations from a re-analysis of the deposited data

Results flagged for a closer look

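In each group of 4 livers, the gap between the extreme liver and its neighbour was divided by the range of the group and held against Dixon's critical value. Of 80 groups of member values 10 had a liver apart, and chance alone sets about 1 in 20 apart. Male WT chow replicate 1 accounts for 7 of them. It was high for Apoa1 (23730 CPM, against at most 7437 in the others), Apoa5 (3368 against 1167), Apoc3 (3173 against 1372), Apoe (52330 against 20280), Lcat (1198 against 417.8) and Scarb1 (465.9 against 198.8), and low for Apob (1622 against at least 6326 CPM). Female WT chow replicate 1 was high for Apoe (27290 against 19470 CPM) and low for Apob (3985 against 5852 CPM). Male KO chow replicate 2 was high for Apob, at 6072 CPM against 5518 CPM.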

How the results depend on the processing

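The cause of the changes below was not tested. Counts in this section stand without the share of all genes called in the same fit, unless genes in all are given. They do not show a change particular to these genes. For female KO against WT on chow, 1 member was called with library totals alone, 1 with the replicate block and 5 with 4 groups in 1 fit. Library totals there called 2727 genes in all higher and 275 lower, against 1593 and 818 with TMM. For SC-435 in female KO mice, 1 was called with median-of-ratios factors, no filter, the block, 4 groups in 1 fit or the length offset. Library totals gave 4, where 826 genes in all were called higher and 3202 lower, against 1398 and 1508 with TMM. For female KO SC-435 against WT chow the block gave 3. In males, 4 groups in 1 fit gave 1 for KO against WT on chow and 0 for SC-435 in KO mice, where the block gave 1. The female interaction gave 1 with library totals, where 109 genes in all were called higher and 838 lower, against 145 and 300 with TMM. Of the other lipoprotein genes, female WT SC-435 gave 2 with the block and 13 with DESeq2. Male KO against WT on chow gave 0 with the block, 9 with DESeq2 and 10 with 4 groups in 1 fit. SC-435 in male KO mice gave 13, 33 and 8, and in male WT mice DESeq2 and 4 groups in 1 fit gave 1 each. Male KO SC-435 against WT chow gave 0 with library totals, 0 with the block and 4 with DESeq2.

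Leaving out 1 library gave, for members, 0 to 3 (female KO against WT chow), 1 to 2 (SC-435 in female KO), 2 to 6 (female KO SC-435 against WT chow), 0 to 1 (male KO against WT chow), 0 to 2 (SC-435 in male KO), 0 to 2 (sexes), and 0 to 1 for the female interaction and for the sex by SC-435 interaction. For the other genes it gave 8 to 22, 14 to 32, 0 to 5 (female WT SC-435) and 9 to 23 in females, and in males 0 to 11, 11 to 26, 0 to 4 (WT SC-435) and 0 to 20.

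Log2 fold changes that changed sign were all uncalled. With library totals they were Apoa4 (0.037) and Apoe (0.10) in female KO against WT chow, Lcat (-0.14) for SC-435 in female KO, Scarb1 (0.28) in male KO against WT chow, Apoc3 (-0.082) and Mttp (-0.10) for SC-435 in male KO, and Apoa4 (0.14) and Apoe (0.022) in male KO SC-435 against WT chow. With the length offset they were Apob (-0.027) in female and (-0.033) in male KO against WT chow, Lcat (-0.0053) for SC-435 in female KO and Abca1 (-0.042) in male KO SC-435 against WT chow. With the block they were Scarb1 (0.016) in male KO against WT chow, Abca1 (0.076) in male WT SC-435, and Apoa4 (0.059) and Apob (0.11) in male KO SC-435 against WT chow, and with median-of-ratios factors Apoa4 (-0.00081) in male WT SC-435.

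Leaving out 1 library turned signs within these ranges. In female KO against WT chow they were -0.52 to 0.060 (Apoa4), -0.050 to 0.14 (Apob) and -0.17 to 0.047 (Apoe). For SC-435 in female KO they were -0.45 to 0.12 (Apoa4) and -0.054 to 0.089 (Lcat), in female WT -0.16 to 0.14 (Apoa1), -0.043 to 0.15 (Apob) and -0.12 to 0.091 (Apoe), and in female KO SC-435 against WT chow -0.17 to 0.040 (Abca1). In male KO against WT chow they were -0.16 to 0.27 (Apob), -0.62 to 0.034 (Apoc3), -0.24 to 0.33 (Scarb1) and -0.057 to 0.36 (Abca1), and for SC-435 in male KO -0.019 to 0.21 (Apoc3). In male WT SC-435 they were -0.30 to 0.60 (Apoa4), -0.048 to 0.37 (Apob), -0.52 to 0.21 (Apoe), -0.67 to 0.13 (Lcat) and -0.28 to 0.13 (Abca1). In male KO SC-435 against WT chow they were -0.77 to 0.14 (Apoa1), -0.36 to 0.47 (Apoa4), -0.82 to 0.031 (Apoa5), -0.34 to 0.076 (Apob), -0.54 to 0.12 (Apoc3), -0.39 to 0.34 (Apoe), -0.72 to 0.071 (Lcat) and -0.24 to 0.16 (Abca1).

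Replicate numbers were not taken to pair the libraries: the correlation of deviations between equal numbers ran from -0.22 to 0.426, and in no comparison were all 4 pairs above 0.1. Female against male WT chow came nearest, with 3 of 4 pairs above it, and the block gave 0 members there. The lowest member level in any liver, 13.5 CPM for Apoa4, lay far above the level of 3 counts, which was at most 0.0823 CPM. Library totals also moved the median of all genes by 0.25 for male KO against WT chow, by 0.16 between the sexes (50% to 61.3% of calls higher) and by -0.16, -0.25 and -0.12 for the female, male and sex by genotype interactions (32.6% to 11.5% higher for the female one, and 13.3% to 0% for the male one, on 15 and 12 calls).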
